A study of Mus musculus with 6 samples.

Results

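Genes that move and store iron, zinc and copper were compared between cultured macrophages of wild-type mice (WT) and of mice with a Gps2 knockout (GPS2KO). The set held 39 genes, taken by name: 17 for iron and haem breakdown, 19 for zinc and 3 for copper. It does not hold every gene of these families, and some others were tested in further lists. All 39 were among the 18820 genes tested. Each gene was represented by a probe set that the array's annotation gives to that gene alone, and by the brightest such probe set where there were several.

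The cells were bone marrow-derived macrophages, grown for 7 days in medium with 30% supernatant of L929 fibroblasts and 10% serum, and given no stimulus. Both groups were male, and the mice were 12 to 16 weeks old. The labels call the second group GPS2KO, or GPS2 MKO, and give no strain, Cre driver or deleted exon. Each group had 3 Affymetrix arrays, and nothing says whether each array came from a mouse of its own. The p-values therefore measure only the spread between these arrays, which may be technical. GPS2 belongs to the NCoR and SMRT co-repressor complexes, and the comparison asks how unstimulated macrophages differ without it.

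Macrophages take up iron bound to transferrin and iron from engulfed red cells. They store it in ferritin or return it to the blood through ferroportin, the only known cellular iron exporter. Iron regulatory proteins bind elements in the mRNAs of ferritin, ferroportin and the transferrin receptor and adjust them to the iron supply. Zinc enters the cytosol through ZIP proteins (the Slc39a genes) and leaves it through ZnT proteins (Slc30a genes), while metallothioneins bind zinc and copper. Copper is taken up by CTR1 and pumped out or into vesicles by ATP7A, which brings it to bacteria held in phagosomes.

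The values were log2 signals, and array medians lay between 5.57 and 5.60. Changes are GPS2KO minus WT with the standard error (SE) of limma, a linear model that shares information on the spread between genes. A gene rose or fell where its Benjamini-Hochberg adjusted p over all tested genes was under 0.05. Genes with a mean signal below 5.49, the dimmest 40% of those tested, are called dim. Gps2 itself was at 59.7% of its WT signal on the GPS2KO arrays (limma adjusted p = 0.000256; exact 2-sided permutation p = 0.1, the smallest that 3 arrays a group allow). Without a stated deletion, it is not known whether its probes lie inside the deleted part.

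The macrophage label was checked against 8 tested markers, none of which was dim and 2 of which rose, Itgam (0.19) and Mertk (0.24). Adgre1, Csf1r and Cd68 had WT means of 12.53, 12.74 and 13.12. All 6 tested erythroid markers were dim, and so were 8 of 11 neutrophil markers and 6 of 10 dendritic cell markers. Of these 10, only Itgax passed, with a rise of 1.00, and it was not dim (WT mean 8.16). Fibroblast markers were not low: 8 of 9 lay above the dim limit, among them Col1a1 with a WT mean of 11.97, and 3 of the 9 fell and 1 rose. Their summed linear signal was 14880.5 to 15371 in WT and 13649.5 to 13838 in GPS2KO. The part of such cells in the differences of metal genes was not tested. In these bulk samples, fewer cells of a type and less RNA per cell cannot be told apart.

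In GPS2KO macrophages 4 of the 39 metal-handling genes rose, 2 fell and 33 did not pass. The rises were ferroportin (Slc40a1), the transferrin receptor (Tfrc), transferrin (Trf) and the importer ZIP8 (Slc39a8). The falls were the importers ZIP4 (Slc39a4) and ZIP14 (Slc39a14). Iron genes gave 3 rises and 0 falls among 17, zinc genes 1 rise and 2 falls among 19, and copper genes 0 of either among 3. No call was made among the set's ferritin chains, iron regulatory proteins, haem breakdown enzymes, ZnT exporters, metallothioneins or copper transporters.

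The 6 calls were 15.4% of the set, against 6.72% of all tested genes and 10.6% of the 11292 genes that were not dim. Of the 39 genes in the set, 1 was dim. By direction, 2.9% of all tested genes rose and 3.83% fell. For 21 of the 39 genes (53.8%) no GPS2KO array fell within the WT range or the reverse, where the background was 27.1% of all tested genes and 37.3% of those not dim. An unadjusted p under 0.05 was reached by 14 of the 39 genes and by 20.8% of all tested genes. The median difference of the set was -0.01, as for all tested genes (also -0.01), and the median size was 0.06 in both. The smallest called difference had a size of 0.27. All 6 calls were also made under each of the 12 other settings and left-out arrays that were tried. With arrays centred on their medians the set held 4 rises and 5 falls, so that rises made up 44.4% of its calls in place of 66.7%. Over all tested genes that share went from 43.1% to 30.2%.

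**Figure D1:**
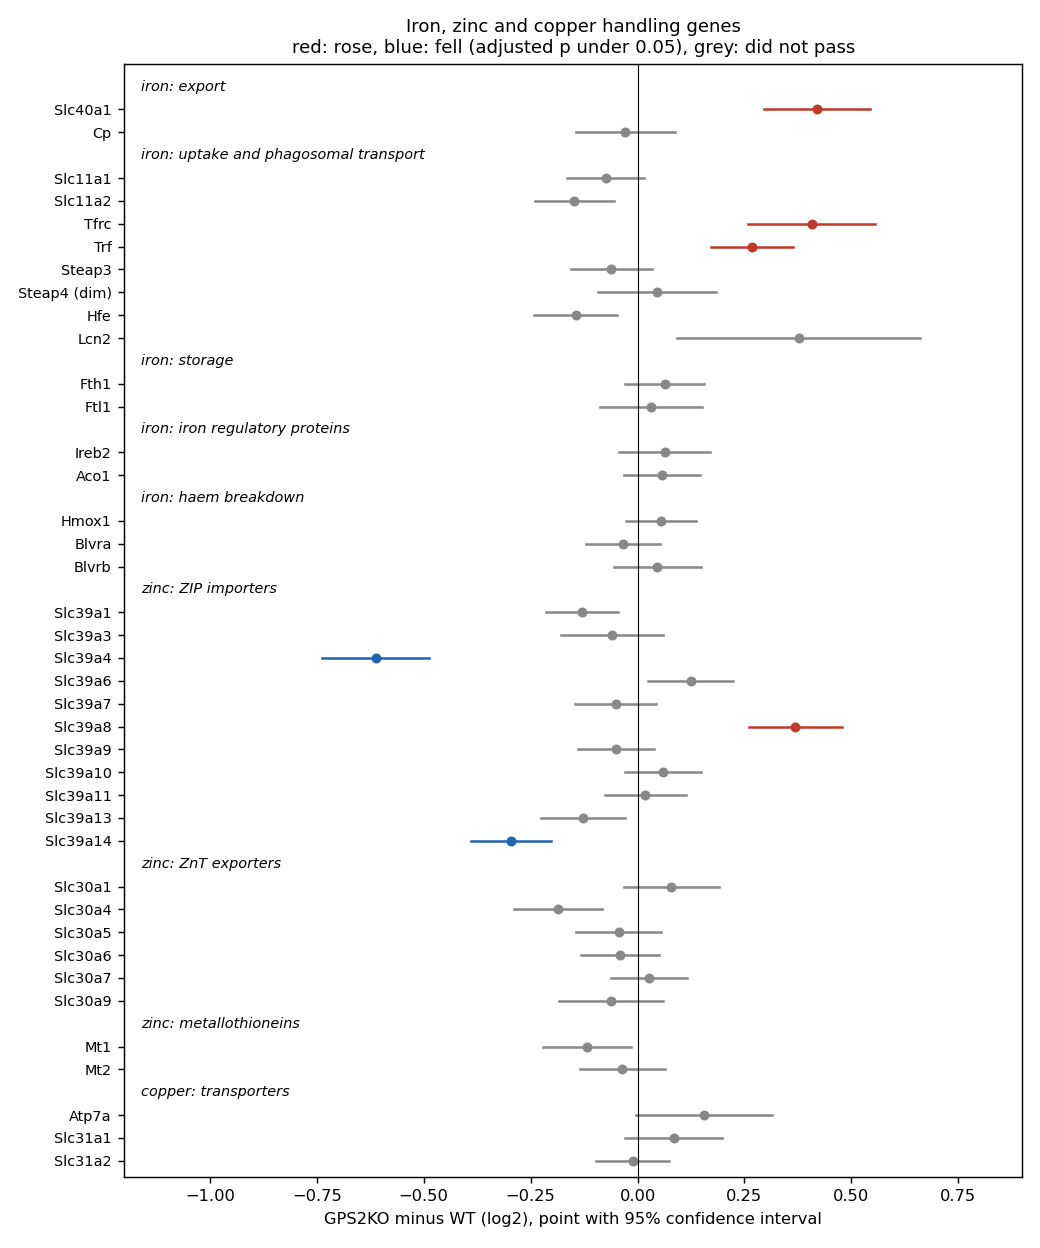
Difference between GPS2KO and WT on the log2 scale for each of the 39 genes (points, with 95% confidence intervals as lines), grouped by metal and role. Red genes rose and blue genes fell at an adjusted p under 0.05, grey genes did not pass. The 6 coloured genes lie between -0.61 and 0.42, and 25 of the 33 grey intervals include 0.

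**Figure D2:**
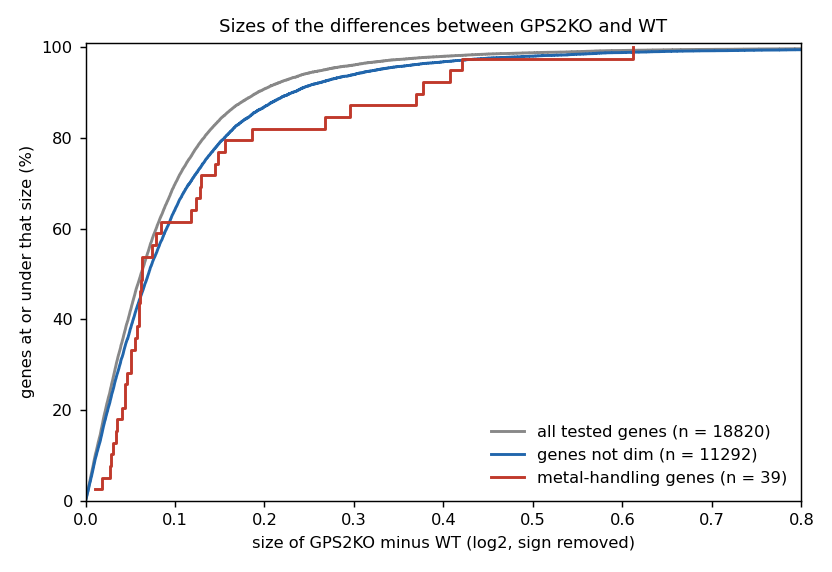
Cumulative share of genes (vertical axis, %) with a difference of at most the size on the horizontal axis (log2, sign removed), for all 18820 tested genes, the 11292 that were not dim and the 39 metal-handling genes. A size of 0.2 was exceeded by 17.9% of the metal-handling genes, 13.1% of the genes that were not dim and 9.2% of all tested genes.

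Promoter sequences show which known control letters lie beside these genes. The RefSeq table used (build GRCm38.p6) matched 32 of the 39 genes, with 42 start sites. It held no entry for Slc40a1, Slc11a2, Trf, Hmox1, Slc39a4, Slc39a6 and Slc39a14. The 250 bases before each start were searched on both strands for 3 motifs. The first was the metal response element core (MRE; TGCACNC or TGCGCNC), which the zinc sensor MTF1 binds. The second was the antioxidant response element core (ARE; TGACNNNGC), bound by NRF2, and the third the hypoxia response element core (HRE; ACGTG), bound by HIF proteins. The MRE was in 12 of the 42 windows (28.6%) and in 21.4% of all 32851 windows of that length in the table. The ARE was in 8 windows (19%, against 10.2% overall) and the HRE in 8 (19%, against 16.6%). Shown are the 2 called genes that the table holds, each at its most upstream start, and for comparison Slc30a1 and Mt2, textbook MTF1 targets that did not pass. Capitals mark the motif letters. The windows are chr16:32608646-32608895 (Tfrc), chr3:135825029-135825278 (Slc39a8), chr1:191906531-191906780 (Slc30a1) and chr8:94172368-94172617 (Mt2), all on the plus strand.
Tfrc: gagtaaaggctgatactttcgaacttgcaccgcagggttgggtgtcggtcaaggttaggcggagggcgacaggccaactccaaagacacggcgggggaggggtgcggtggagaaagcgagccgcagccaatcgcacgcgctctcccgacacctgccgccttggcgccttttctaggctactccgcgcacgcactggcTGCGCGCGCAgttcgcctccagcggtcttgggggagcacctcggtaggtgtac
Slc39a8: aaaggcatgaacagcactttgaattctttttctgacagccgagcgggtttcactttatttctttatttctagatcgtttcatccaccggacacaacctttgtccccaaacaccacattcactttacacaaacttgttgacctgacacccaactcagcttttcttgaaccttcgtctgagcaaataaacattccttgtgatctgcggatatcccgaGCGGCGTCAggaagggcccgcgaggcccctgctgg
Slc30a1: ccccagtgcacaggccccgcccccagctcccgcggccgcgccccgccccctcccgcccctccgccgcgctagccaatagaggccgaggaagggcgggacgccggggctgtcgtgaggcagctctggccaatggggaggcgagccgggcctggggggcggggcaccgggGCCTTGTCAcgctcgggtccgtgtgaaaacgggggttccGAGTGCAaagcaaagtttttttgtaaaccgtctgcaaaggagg
Mt2: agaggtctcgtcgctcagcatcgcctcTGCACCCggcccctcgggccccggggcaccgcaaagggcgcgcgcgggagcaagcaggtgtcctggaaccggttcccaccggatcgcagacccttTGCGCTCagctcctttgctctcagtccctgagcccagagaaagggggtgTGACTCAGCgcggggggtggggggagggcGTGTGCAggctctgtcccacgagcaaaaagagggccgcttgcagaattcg
In the Tfrc window, MRE letters on both strands overlap and begin 53 and 50 bases before the start. The Slc39a8 window has 1 ARE, 35 bases before the start. Slc30a1 has an ARE at 82 bases and an MRE at 43 bases, and Mt2 has MRE letters at 223, 128 and 50 bases and an ARE at 79 bases. Both called genes have a second start in the table, not printed here. That of Slc39a8 has MRE letters at 19 bases and HRE letters at 70 and 71 bases, and that of Tfrc has HRE letters at 228 bases. A match is a description of letters only.

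Ferroportin, which exports iron from the macrophage, rose. Slc40a1 had log2 signals of 9.332, 9.202 and 9.173 in WT and of 9.647, 9.707 and 9.614 in GPS2KO. Every GPS2KO array lay above every WT array. The difference was 0.42 (SE 0.0534, 95% confidence interval 0.30 to 0.54), a 1.34-fold rise with a limma adjusted p of 0.00384. Ceruloplasmin (Cp), a copper-containing oxidase that helps load exported iron onto transferrin, had overlapping groups of 6.59 to 6.70 and 6.57 to 6.69 and did not pass (-0.03, adjusted p = 0.806).

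Transcripts of the transferrin receptor and of its ligand both rose. Tfrc, the receptor that carries transferrin-bound iron into endosomes, was at 9.404, 9.26 and 9.264 in WT and at 9.676, 9.828 and 9.643 in GPS2KO. The groups did not overlap, and GPS2KO replicate 2 was the highest array. The rise was 0.41 (SE 0.0639, 1.33-fold, limma adjusted p = 0.00983), with a 95% confidence interval of 0.26 to 0.56. Trf, the gene of transferrin itself, was at 11.712, 11.647 and 11.615 in WT and at 11.922, 11.913 and 11.942 in GPS2KO. All 3 GPS2KO arrays were higher, and they lay closer together than the WT arrays. Trf rose by 0.27 (SE 0.0408, 1.2-fold, limma adjusted p = 0.00862). Proliferating cells and red cell precursors are known for high Tfrc. Among 10 tested proliferation genes 0 were dim, 0 passed in limma and 3 had an unadjusted p under 0.05 (20.8% of all tested genes did). These 3 went both ways, with Cdk1 at 0.16, Rrm2 at 0.14 and Birc5 at -0.17, and the list had a summed signal of 25184 to 25822 in WT and 25348 to 26721 in GPS2KO. The 6 tested erythroid markers were dim in both groups, with a summed signal of 163 to 173 on WT arrays and 163 to 167 on GPS2KO arrays. The part of either in the Tfrc rise was not tested.

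The other genes of iron uptake and phagosomal transport did not pass. DMT1 (Slc11a2), which moves iron out of endosomes, was at 10.497, 10.447 and 10.429 on WT arrays and at 10.347, 10.297 and 10.287 on GPS2KO arrays. The groups did not overlap, but the difference of -0.15 had an adjusted p of 0.074. NRAMP1 (Slc11a1), the metal transporter of the phagosome, was at 12.561, 12.581 and 12.619 against 12.528, 12.528 and 12.482. These groups were also separate, by a small margin (-0.07, 95% confidence interval -0.16 to 0.02, adjusted p = 0.334). HFE, which binds the transferrin receptor and is mutated in haemochromatosis, differed by -0.14 (adjusted p = 0.0868) with separate groups. The endosomal ferrireductase Steap3 differed by -0.06 (adjusted p = 0.451). Its relative Steap4 was dim, with means of 4.11 and 4.15.

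Lipocalin 2 (Lcn2), which withholds iron from bacteria by binding their siderophores, had the largest SE of the 39 genes. Its signals were 6.42, 6.194 and 6.54 on WT arrays and 6.971, 6.774 and 6.539 on GPS2KO arrays, so that GPS2KO replicate 3 lay within the WT range. The difference of 0.38 had an SE of 0.122 and did not pass (adjusted p = 0.126). Lcn2 is also a granule gene of neutrophils. Of the 11 tested neutrophil markers, Ngp (0.46) and Mmp8 (0.88) rose and 9 did not pass, and the list's summed linear signal was 654 to 719 on WT arrays and 968 to 1035 on GPS2KO arrays. Mmp8 carried most of that difference: without it the sums were 321 to 344.8 and 343.1 to 377.2. Of the 9 that did not pass, 4 had a higher and 5 a lower mean in GPS2KO. Of the 11 markers 8 were dim, among them Elane, Mpo, Camp and S100a9, while S100a8, Ngp and Mmp8 were not. The part of neutrophils in the Lcn2 difference was not tested.

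On the probe sets used, mRNA signals of ferritin chains, iron regulatory proteins and haem breakdown enzymes differed by -0.03 to 0.06. Protein levels and iron stores were not measured. The ferritin heavy chain gene Fth1 was at 13.17, 13.253 and 13.178 on WT arrays and at 13.258, 13.26 and 13.273 on GPS2KO arrays (0.06, adjusted p = 0.426). A second Fth1 probe set, at 8.08 to 8.39 and 8.34 to 8.54, overlapped between groups. The light chain gene Ftl1 differed by 0.03 (adjusted p = 0.795). Ferritin genes have near-identical copies in the genome, and 4 further Ftl1 probe sets were shared with another gene and not used, so ferritin signals are uncertain. The iron regulatory proteins IRP1 (Aco1) and IRP2 (Ireb2), which read the iron level, each differed by 0.06 (adjusted p = 0.459 and 0.495). Haem oxygenase 1 (Hmox1), which opens the haem ring and frees its iron, was at 12.372, 12.364 and 12.373 against 12.421, 12.418 and 12.435. The groups were separate, yet the difference was only 0.05 (95% confidence interval -0.03 to 0.14, adjusted p = 0.433). The biliverdin reductases Blvra and Blvrb, which act after it, differed by -0.03 and 0.05 (adjusted p = 0.664 and 0.609). None of these 7 genes passed in limma, and 0 had an unadjusted p under 0.05, a level that 20.8% of all tested genes reached.

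**Figure D3:**
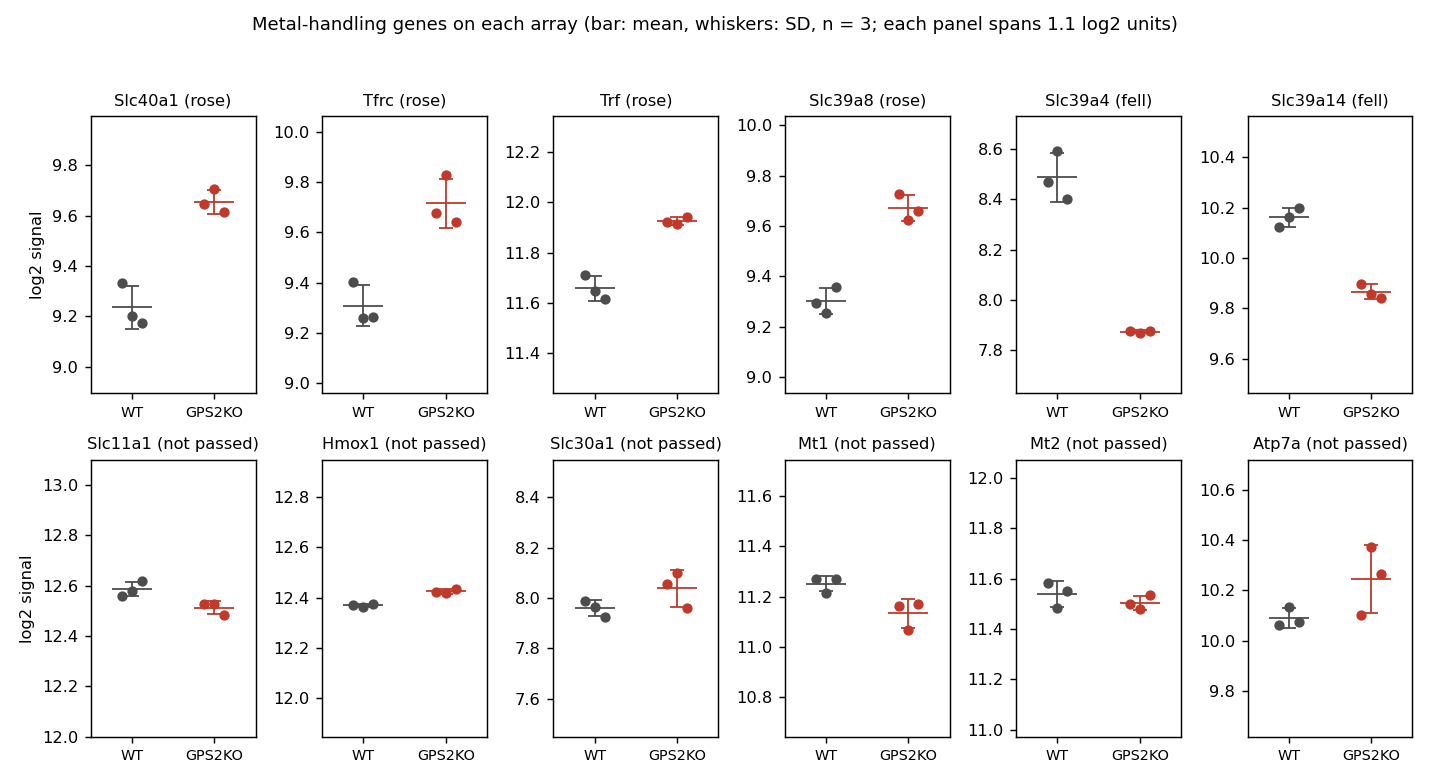
Log2 signal of 12 metal-handling genes on the 3 WT (grey) and 3 GPS2KO (red) arrays. Points are arrays, horizontal bars are group means and whiskers are the SD, and every panel spans the same log2 range. The top row holds the 6 called genes, whose groups are apart, and the bottom row 6 genes that did not pass, such as Mt2 at 11.48 to 11.58 and 11.48 to 11.53.

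Of the 11 ZIP importers in the set, 1 rose, 2 fell and 8 did not pass. These calls were 27.3% of those 11, against 6.72% of all tested genes and 10.6% of those that were not dim. The ZIP genes Slc39a2, Slc39a5 and Slc39a12, tested outside the set, were dim and did not pass. ZIP4 (Slc39a4), the intestinal zinc importer whose loss causes acrodermatitis enteropathica, had the largest difference of the whole set. It was at 8.468, 8.592 and 8.4 on WT arrays and at 7.877, 7.869 and 7.877 on GPS2KO arrays. The GPS2KO arrays were nearly equal and all lay below the lowest WT array. Slc39a4 fell by 0.61 (SE 0.0536, 95% confidence interval -0.74 to -0.49), a 1.53-fold fall with a limma adjusted p of 0.00078. It ranked 69 among the falls of all tested genes by size.

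ZIP8 and ZIP14 are close relatives that carry zinc, iron and manganese, and they moved in opposite directions. Slc39a8 was at 9.293, 9.254 and 9.358 on WT arrays and at 9.728, 9.624 and 9.66 on GPS2KO arrays. All GPS2KO arrays were higher, and the rise was 0.37 (SE 0.0466, 1.29-fold, limma adjusted p = 0.00373). Slc39a14 was at 10.125, 10.163 and 10.199 on WT arrays and at 9.899, 9.859 and 9.841 on GPS2KO arrays. All GPS2KO arrays were lower, and the fall had a size of 1.23-fold (-0.30, SE 0.04, limma adjusted p = 0.00519). The 9 tested fibroblast markers went both ways: Col1a1 (-0.20), Pdgfrb (-0.28) and Thy1 (-0.30) fell and Dcn rose (0.30). The other 5 did not pass, with Col1a2, Col3a1 and Postn at -0.15, -0.12 and -0.05 and Pdgfra and Lum at 0.31 and 0.15. Their part in the fall of Slc39a14 was not tested.

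Within each array the pair can be described by the log2 ratio of Slc39a8 to Slc39a14, which adding a constant to an array does not alter. The ratio was -0.832, -0.908 and -0.841 on WT arrays and -0.171, -0.235 and -0.181 on GPS2KO arrays. The SDs were 0.0417 and 0.0343, and the means differed by 0.66, or 1.59-fold. The pair was chosen because its genes had moved apart, so the ratio is a description with no test. A ratio of signals from different probe sets has meaning only as a change between arrays.

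**Figure D4:**
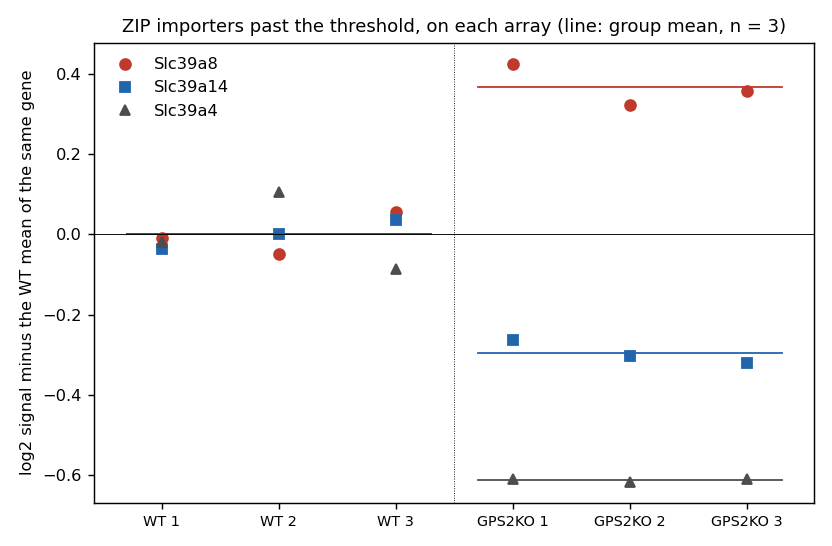
Log2 signal of Slc39a8 (red circles), Slc39a14 (blue squares) and Slc39a4 (grey triangles) on each array, minus that gene's WT mean, with lines at group means (n = 3). On the GPS2KO arrays Slc39a8 lies 0.37 above its WT mean on average, Slc39a14 lies 0.30 below and Slc39a4 lies 0.61 below.

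The other 8 ZIP genes of the set differed by -0.13 to 0.12 and had adjusted p-values of 0.0822 to 0.85. ZIP1 (Slc39a1), a broadly expressed importer of the plasma membrane, was at 11.578, 11.552 and 11.563 against 11.457, 11.415 and 11.435. These arrays were clearly separate, but the small difference (-0.13) gave an adjusted p of 0.0822. A second Slc39a1 probe set differed by -0.10 with overlapping groups. ZIP13 (Slc39a13), a transporter of the Golgi and vesicles, differed by -0.13 (adjusted p = 0.13) and ZIP6 (Slc39a6) by 0.12 (adjusted p = 0.151), both with separate groups. ZIP7 (Slc39a7), which releases zinc from the endoplasmic reticulum, ZIP9 (Slc39a9) and ZIP3 (Slc39a3) differed by -0.05, -0.05 and -0.06. ZIP10 (Slc39a10) and ZIP11 (Slc39a11) differed by 0.06 and 0.02.

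None of the 6 ZnT exporters of the set passed in limma. Among them 1 had an unadjusted p under 0.05, a share close to the 20.8% of all tested genes. That gene was ZnT4 (Slc30a4), which loads zinc into vesicles. It was at 9.444, 9.425 and 9.405 on WT arrays and at 9.168, 9.292 and 9.255 on GPS2KO arrays. The groups were separate, and the difference of -0.19 (SE 0.0444) missed the threshold at an adjusted p of 0.0503. It passed under 4 of the other settings, with an adjusted p of 0.0109 to 0.134 over all of them. ZnT1 (Slc30a1), the zinc exporter of the plasma membrane, was at 7.989, 7.964 and 7.925 against 8.057, 8.099 and 7.959, which overlap (0.08, adjusted p = 0.408). A further Slc30a1 probe set was shared with another gene and not used. ZnT5 and ZnT6 (Slc30a5, Slc30a6), which pair to supply zinc to enzymes of the secretory pathway, differed by -0.04 each. ZnT7 (Slc30a7) differed by 0.03 and Slc30a9 by -0.06, with overlapping groups.

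The metallothioneins Mt1 and Mt2, which bind zinc and copper in the cytosol and rise when either metal is in excess, did not pass. Mt1 was at 11.27, 11.216 and 11.27 on WT arrays and at 11.162, 11.068 and 11.173 on GPS2KO arrays. The groups were separate, with a difference of -0.12 (95% confidence interval -0.22 to -0.02, adjusted p = 0.182; unadjusted p = 0.0298). Mt2 was at 11.583, 11.482 and 11.552 against 11.5, 11.478 and 11.533, which overlap (-0.04, 95% confidence interval -0.13 to 0.06, adjusted p = 0.7). In the same lists, Mtf1, the gene of the zinc sensor that activates both, differed by 0.05 (adjusted p = 0.474).

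None of the 3 copper genes passed in limma, and 0 had an unadjusted p under 0.05, which 20.8% of all tested genes had. ATP7A was at 10.063, 10.134 and 10.072 on WT arrays and at 10.101, 10.37 and 10.264 on GPS2KO arrays. GPS2KO replicate 1 lay within the WT range, and the difference of 0.16 had a 95% confidence interval of -0.0035 to 0.31 (adjusted p = 0.252). The importer CTR1 (Slc31a1) was at 11.057, 11.094 and 10.946 against 11.1, 11.1 and 11.149 (0.08, adjusted p = 0.388), groups that were separate by a small margin. Its relative CTR2 (Slc31a2), of endosomes and lysosomes, was at 12.21 to 12.23 on WT arrays and at 12.18 to 12.24 on GPS2KO arrays (-0.01, adjusted p = 0.906).

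Further genes of the same pathways were read from lists of iron and haem, zinc and copper genes. Of 34 tested iron and haem genes 3 rose, 4 fell and 27 did not pass, with a median difference of -0.02. Calls made up 20.6% of that list, against 6.72% of all tested genes and 10.6% of those that were not dim. Alas1, the rate-limiting enzyme of haem synthesis outside red cells, was at 10.467, 10.384 and 10.474 on WT arrays and at 10.909, 10.888 and 10.857 on GPS2KO arrays. These groups were well apart, and Alas1 rose 1.36-fold (0.44, SE 0.0419, limma adjusted p = 0.00115). Its difference is the largest in size in these lists. The later enzymes of haem synthesis, Alad, Uros, Urod, Cpox, Ppox and Fech, differed by -0.20 to 0.05 and did not pass.

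Ncoa4, which delivers ferritin to lysosomes so that its iron is freed, rose from 10.973, 11.029 and 10.957 to 11.27, 11.252 and 11.257 (1.21-fold, limma adjusted p = 0.00606). Its second probe set differed by 0.24 in the same direction. The haem exporter Flvcr1 rose from 10.327, 10.35 and 10.255 to 10.538, 10.623 and 10.558 (1.2-fold, adjusted p = 0.0132), and was no longer called with GPS2KO replicate 2 left out (adjusted p = 0.0541).

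The falls in the iron and haem list included both mitoferrins, which carry iron into mitochondria. Mitoferrin 1 (Slc25a37) fell from 9.536, 9.631 and 9.591 to 9.288, 9.312 and 9.364 (-0.26, 1.2-fold, limma adjusted p = 0.0113). Mitoferrin 2 (Slc25a28) fell by 0.21 (adjusted p = 0.0282). Iscu, the scaffold on which iron-sulphur clusters are built, fell by 0.16 (adjusted p = 0.0471). Epas1, which encodes HIF-2 alpha and whose mRNA carries an iron-responsive element, fell by 0.23 (adjusted p = 0.0435). Slc25a28, Iscu and Epas1 were named after their values were seen. Slc25a28 and Iscu were not called when any single array was left out (adjusted p of 0.0545 to 0.103 and of 0.0784 to 0.14). Epas1 was called when WT replicate 1 was left out and in none of the other 5 cases (0.102 to 0.128). The oxygen and redox regulators Hif1a, Nfe2l2 (NRF2), Keap1 and Bach1, the haem-sensing repressor of Hmox1, differed by -0.09 to 0.0028 and did not pass. Fbxl5, the iron sensor that marks IRP2 for degradation, differed by 0.16 (adjusted p = 0.0656).

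Of 12 other zinc genes, 9 were dim and 8.33% were called, against 6.72% of all tested genes. These 12 include the ZIP genes Slc39a2, Slc39a5 and Slc39a12 and the ZnT genes Slc30a2, Slc30a3, Slc30a8 and Slc30a10, none of which passed. Mt4, a metallothionein outside the set, was the 1 call, a fall of 0.20 (adjusted p = 0.0416). It was dim at means of 5.11 and 4.90 and was not called when any single array was left out (adjusted p of 0.0576 to 0.138). Of 11 other copper genes 1 rose and 1 fell, a share of 18.2%, against 6.72% of all tested genes and 10.6% of those that were not dim. Atox1, the chaperone that hands copper to ATP7A, rose from 10.261, 10.193 and 10.299 to 10.542, 10.529 and 10.479 (1.2-fold, limma adjusted p = 0.0114). Its groups did not overlap, and without GPS2KO replicate 2 its adjusted p was 0.0503. The metalloreductase Steap2 fell from 8.77, 8.822 and 8.84 to 8.578, 8.607 and 8.619 (-0.21, adjusted p = 0.0187), and was called when WT replicate 1 was left out and in none of the other 5 cases (0.0591 to 0.0706). Averaged with its second, dim probe set, Steap2 differed by -0.06 (adjusted p = 0.521). The copper chaperone Ccs and its client Sod1 differed by -0.18 and -0.19 with separate groups and did not pass (adjusted p = 0.0677 and 0.105). A second Sod1 probe set differed by -0.09 with overlapping groups.

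**Figure D5:**
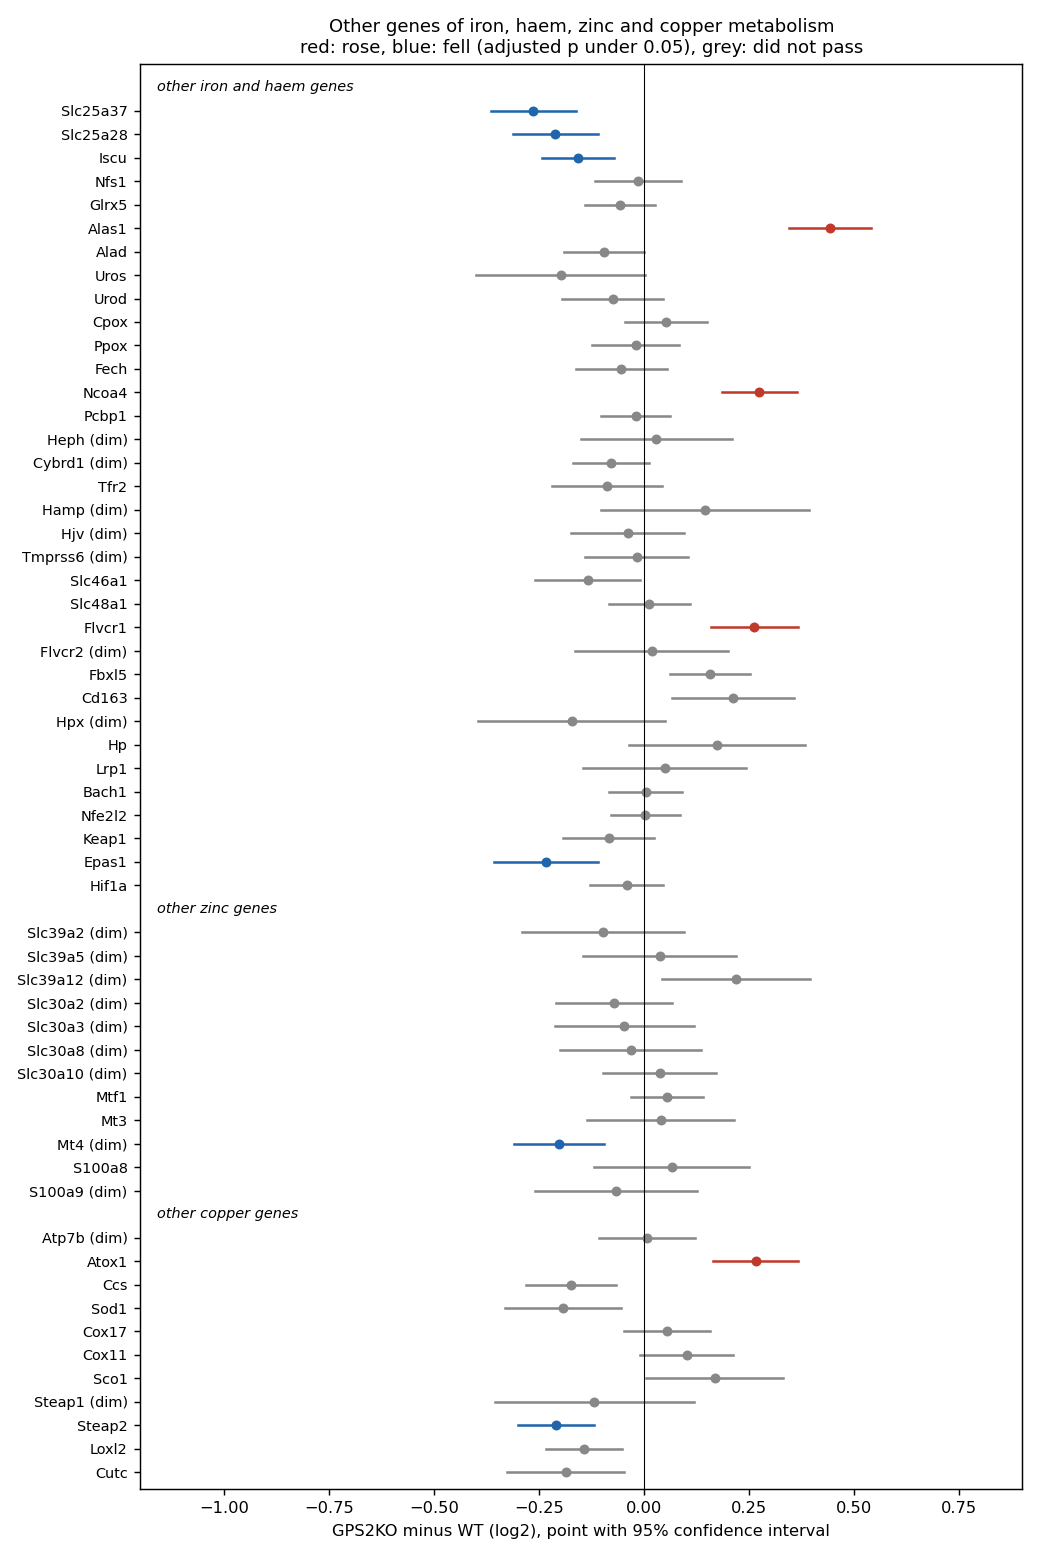
Difference between GPS2KO and WT on the log2 scale (points, with 95% confidence intervals as lines) for the 57 tested genes of the 3 further lists. Red genes rose, blue genes fell, grey genes did not pass, and dim genes are marked. Alas1, at 0.44, lies farthest from 0.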

How the data were processed

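The authors' deposited values are log2 intensities from RMA, run in oligo, per the submitters' processing notes, and no version is stated there. RMA subtracts background, equalizes the arrays' distributions and summarises probes by median polish, which hides any shift common to most genes. GEO's platform annotation gave 21218 of 35556 probe sets 1 symbol, 1881 several, and did not list 12457. Of the first, 21185 matched RefSeq genes of assembly GRCm38.p6 by gene number. No filter was applied.

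All 18820 genes were fitted together with limma 3.58.1 in R 4.3.3 (lmFit and eBayes, group as the only term, 2-sided). On simulated data with these means and spreads, for GPS2KO against WT over 18820 genes, 44% of 50 planted log2 changes of 0.25 were called, 80% of 50 of 0.5, 94% of 50 of 1 and 100% of 50 of 2, with 5 unchanged genes called. The precision is limited by the number of arrays.

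The members, lists, tests and alternatives were chosen with earlier results of these data known. Every member is reported. Values on every array are given for called members and for Slc11a1, Hmox1, Slc30a1, Mt1, Mt2 and Atp7a by rule, and for others where described. Of each further list, up to 4 called genes by smallest p were to be named; Slc25a28, Iscu, Epas1 and genes that did not pass were added after their values were seen. The alternatives were quantile normalization, median centring, a variance trend, leaving out dim genes, the mean of all probe sets per gene, a replicate block, and leaving out each array.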

Additional observations from a re-analysis of the deposited data

How the results depend on the processing

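The 6 called members kept their calls and directions under all 12 alternatives, the highest adjusted p being 0.0427 for Tfrc. Another 8 members passed under at least 1: Slc30a4, Slc11a2, Slc39a1, Hfe, Slc39a13, Slc39a6, Mt1 and Lcn2, with no change of sign, and 25 passed under none. The sign of Cp, Slc39a11 and Slc31a2, which lie near 0, turned under 1, 2 and 1 of the alternatives. Falls among the members numbered 2, but 5 after median centring, 8 when a variance trend was fitted and 6 when dim genes were left out. In iron these settings gave 1, 2 and 2 falls in place of 0. In zinc they gave 4, 6 and 4 falls in place of 2, and with a variance trend 2 zinc genes rose in place of 1. Over all genes a variance trend gave 926 rises and 1248 falls, in place of 545 and 720, and leaving out dim genes gave 1154 falls. Leaving out any 1 array gave 322 to 376 rises and 419 to 503 falls, with members at 4 rises and 2 falls each time. Median centring moved the median difference of all tested genes from -0.0077 to -0.0315, and a variance trend left it at -0.0077. The causes of the changed counts were not tested. With the replicate number as a block, 370 genes rose and 492 fell, and members gave 4 and 2. Over all genes same-numbered arrays did not deviate together (correlations -0.00604 to 0.0258), and 2 of 6 arrays correlated best with their own number. No pairing by number was seen at that level, and the labels do not state one. The ratio of Slc39a8 to Slc39a14 differed by 0.64 to 0.68 throughout. Signals near background compress fold changes, which concerns Steap4 and Mt4.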
